A study of Mus musculus with 6 samples.

Results

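Acute phase proteins are plasma proteins whose synthesis by the liver shifts during inflammation or injury. The genes described here are 10 mouse acute phase genes (Saa1, Saa2, Saa3, Saa4, Orm1, Orm2, Hp, Lcn2, Serpina3n and Crp), chosen by symbol out of 18194 genes named on the arrays. The platform annotation gave them 12 probe sets, all on the 430A design. Saa1 and Saa4 had 2 probe sets each and the others 1. Every probe set lay above the floor used here (a signal of 90.4, the median of all 430A signals) in WT liver, so all 10 genes were measured.

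As background, these genes answer mainly to interleukin-6, which acts through the receptor chain gp130 and the transcription factor STAT3, and to interleukin-1 and tumour necrosis factor, which act through NF-kB. Factors of the C/EBP family bind many of their promoters and rise or become active with the same signals. In the hepatocyte, the products of positive acute phase genes rise in plasma during inflammation, while those of negative ones, such as albumin, fall.

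The arrays measured liver RNA of male mice, hybrid B6SJL, whose age was 32 to 37 days. LT livers carried the transgenes named ApoErtTA and TRE2-TAg and were induced to make the large T and small t oncoproteins of the virus SV40. 17kT livers carried transgenes of the same names (the genotype field has TRE2-TA) and made, once induced, the 17kT protein, a short form of large T that keeps the part binding the retinoblastoma family and lacks the part binding p53, together with small t. WT livers came from mice without transgenes, and all 3 groups were given drinking water with doxycycline (25 µg/ml) and sucrose (2.5%) over 4 days. The rtTA protein turns on a TRE promoter when doxycycline is present, and WT mice lacked rtTA too, so its effect cannot be told apart from that of the viral proteins.

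Each genotype had 1 array of the 430A design, so differences have no replicate check, no test was possible, and a gene was called higher or lower at a fixed size, a ratio of at least 2-fold between floored signals. The spread of a log2 ratio taken for technical error was an SD of 0.23 in LT over WT, 0.28 in 17kT over WT and 0.26 in LT over 17kT. It comes from the 100 probe sets that both designs carry and leaves out any constant offset. That offset, 430A minus 430B, had a median of -0.25, 0.19 and -0.36 in the same order. Different probe sets of 1 gene spread more, with SDs of 0.52, 0.49 and 0.44. Of the 2 controls of RNA quality on 430A, the 3′ over 5′ signal ratio of Gapdh was 3.08 in LT and 3.53 in 17kT, against 5.81 in WT. That of Actb was 2.52 in LT and 2.13 in 17kT, against 2.57 in WT, so that only Gapdh set both transgenic livers well apart from WT. The part of RNA quality in the results below was not tested. The settings name fluidics station 2 for LT and station 1 for 17kT and WT, so the station cannot be told apart from the LT genotype. The deposited 17kT signals carry more decimals than those of LT and WT. Whether the 17kT arrays were run or processed apart is not known here, and it cannot be told apart from the 17kT genotype. Hepatocyte markers were present, with 9 of 9 measured genes above the floor on every array and summed signals of 72439 in LT, 58104 in 17kT and 128575 in WT. Of these 9 markers 5 were lower than in WT in each transgenic liver, and the part of this loss in the results below was not tested. In whole liver, fewer cells of a type and less RNA per cell cannot be told apart.

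Most acute phase genes were far lower in both kinds of transgenic liver. In LT against WT, 7 of the 10 genes were lower (Saa1, Saa2, Saa4, Orm1, Orm2, Serpina3n and Crp), 1 was higher (Lcn2) and 2 were within the rule (Saa3 and Hp). Of 12776 measured genes, 9.01% were lower and 11.1% higher in the same comparison. In 17kT against WT, 8 of the 10 were lower, the same 7 and Hp, while Lcn2 was again the 1 that was higher and Saa3 was within the rule. The background was 8.64% lower and 9.97% higher of 12993 measured genes. Of the members called lower, Saa2 and Orm2 were above the floor in WT alone. They counted as measured only through WT, and their ratios are bounds. The median log2 ratio of the 10 genes was -2.88 in LT and -2.45 in 17kT, beside 0.02 and 0.07 for all measured genes. Each member median lies midway between a measured ratio and the bound of Orm2 (-2.41), so it depends on the floor. With the floor at the 75th percentile the member medians were -2.24 in LT and -2.37 in 17kT. At the 25th percentile they were -3.42 and -2.60. Both comparisons use the same WT array.

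The share of lower genes was larger among genes bright in WT, called the bright 430A genes below. They were chosen by the WT array, which is also the denominator of both ratios against WT. That choice by itself favours lower calls, so these shares do not describe bright genes as such. Among 430A genes at least as bright in WT as the dimmest of the 10 (a WT signal of 479.7, that of Orm2), 22.4% of 2131 were lower and 4.74% higher in LT, and 23.8% were lower and 4.27% higher in 17kT. The plot of signals by genotype shows every probe set.

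**Figure D1:**
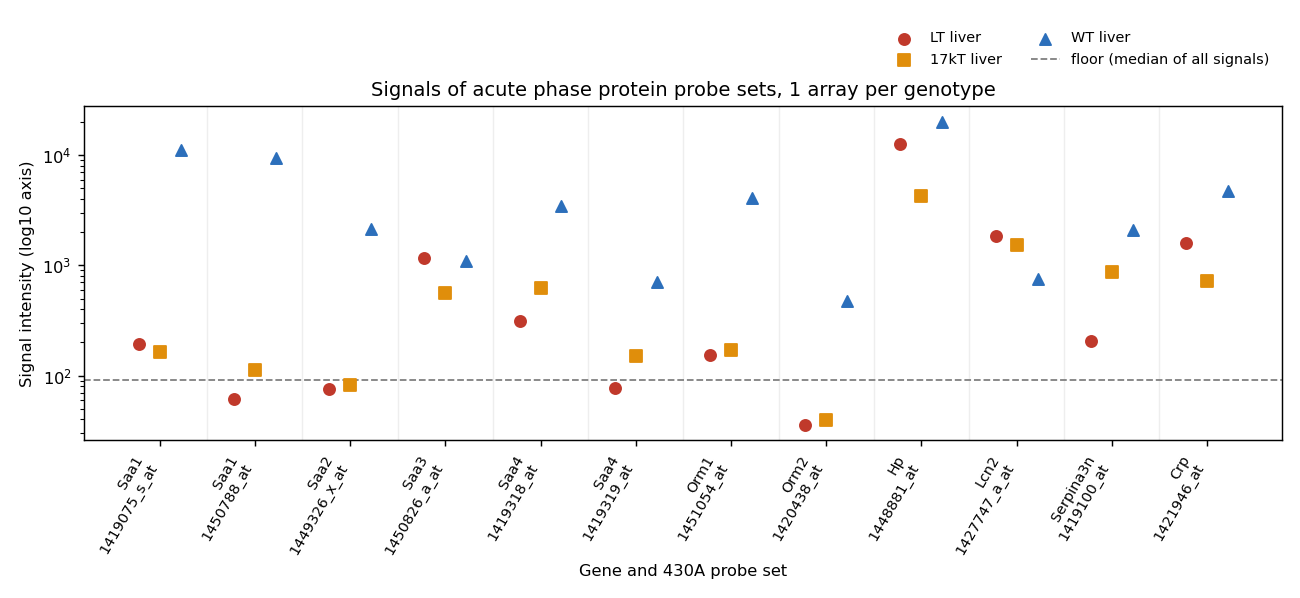
Signal intensity (log10 axis) of the 12 probe sets in LT (circles), 17kT (squares) and WT liver (triangles), 1 array per genotype, with the floor of 90.4 as a dashed line. WT lies highest at every probe set except those of Saa3 and Lcn2, where LT does.

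The serum amyloid A genes encode small apolipoproteins that travel on high-density lipoprotein. Saa1 and Saa2 are the hepatic forms that respond most to inflammation, Saa4 is a constitutive form, and in the mouse Saa3 is made largely outside hepatocytes, by macrophages and fat. In the RefSeq table the 4 genes lie next to each other on chromosome 7, in the order Saa3, Saa4, Saa1, Saa2.

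Saa1 was among the genes furthest below WT in both transgenic livers. Its probe set 1419075_s_at read 194.5 in LT and 165 in 17kT, against 11241 in WT. It was 57.8-fold lower in LT and 68.3-fold lower in 17kT, which placed Saa1 at rank 2 from the lowest ratio of 10166 genes with both signals above the floor for LT and at rank 3 of 10503 for 17kT. The second probe set, 1450788_at, read 60.8 in LT, below the floor, and 113 in 17kT, against 9485 in WT, which makes at least 104.9-fold lower in LT and 84.1-fold lower in 17kT. Both probe sets put the transgenic livers far below WT.

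Saa2 followed the same course. Its 1 probe set, 1449326_x_at, read 75.3 in LT and 81.4 in 17kT, both below the floor, against 2117 in WT, so that Saa2 was at least 23.4-fold lower in each. Signals of Saa1 and Saa2 are uncertain as gene levels, since the sequences are close. The platform assigned 1419075_s_at to Saa1, whereas RefSeq lists the accession it was designed from under Saa2, and probe sets of the _x_at kind can bind several genes.

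Saa4 was lower as well. Both of its probe sets read higher in 17kT than in LT, though inside the 2-fold rule. Probe set 1419318_at read 312 in LT and 623 in 17kT, against 3490 in WT, that is 11.2-fold and 5.60-fold lower. Probe set 1419319_at read 77.5 in LT, below the floor, and 150 in 17kT, against 706 in WT, at least 7.81-fold and 4.70-fold lower.

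Saa3, the neighbour of Saa4 on the chromosome, was called in neither liver. It read 1172 in LT and 560 in 17kT, against 1088 in WT, with log2 ratios of 0.11 in LT and -0.96 in 17kT, both inside the 2-fold rule. The value in 17kT lies close to that rule and passed it under 2 of the 5 other scalings of the arrays, at -1.13 and -1.17. Markers of Kupffer cells and macrophages (10 of 10 above the floor on every array) had summed signals of 11620 in LT, 13914 in 17kT and 12838 in WT, and their part in the Saa3 values was not tested.

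Adipocyte markers, the other known source of Saa3, had summed signals of 282 in LT and 261 in 17kT, against 483 in WT, over 4 genes, with Adipoq and Lep below the floor on all 3 arrays. Retn was below the floor in 17kT and near it in LT and WT (104 and 97.7). The sums thus rest largely on Fabp4 (170.9 in LT, 149.9 in 17kT and 349.5 in WT) and do not measure adipocytes.

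The stretches just before the transcription start of these genes show how alike Saa1 and Saa2 are and which known recognition sequences the genes share. RefSeq windows of the GRCm38.p6 build were read for 8 of the 10 members, all but Orm1 and Hp, and cut to the 250 bases before the start. The 5 printed are the near-identical pair Saa1 and Saa2, the 2 genes called lower in neither liver (Saa3 and Lcn2), and Serpina3n, which differed most between LT and 17kT. Capitals mark matches on either strand to the C/EBP motif TTGCNNAA, the NF-kB consensus or the glucocorticoid receptor palindrome.
Saa1, chr7:46742981-46743230, minus strand: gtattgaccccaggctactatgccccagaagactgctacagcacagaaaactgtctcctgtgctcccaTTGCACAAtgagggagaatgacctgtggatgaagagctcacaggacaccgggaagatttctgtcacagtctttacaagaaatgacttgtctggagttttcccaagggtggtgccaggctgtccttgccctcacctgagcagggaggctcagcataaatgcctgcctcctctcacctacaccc
Saa2, chr7:46751583-46751832, plus strand: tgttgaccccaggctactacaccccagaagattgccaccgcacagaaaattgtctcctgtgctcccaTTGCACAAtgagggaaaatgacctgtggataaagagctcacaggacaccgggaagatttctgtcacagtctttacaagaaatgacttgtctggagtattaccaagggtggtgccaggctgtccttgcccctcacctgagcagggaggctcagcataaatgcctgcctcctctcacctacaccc
Saa3, chr7:46715677-46715926, minus strand: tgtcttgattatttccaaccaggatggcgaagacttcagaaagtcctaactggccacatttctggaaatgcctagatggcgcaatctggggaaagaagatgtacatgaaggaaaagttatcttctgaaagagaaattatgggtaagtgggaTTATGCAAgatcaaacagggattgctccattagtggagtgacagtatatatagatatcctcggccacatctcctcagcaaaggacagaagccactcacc
Lcn2, chr2:32387740-32387989, minus strand: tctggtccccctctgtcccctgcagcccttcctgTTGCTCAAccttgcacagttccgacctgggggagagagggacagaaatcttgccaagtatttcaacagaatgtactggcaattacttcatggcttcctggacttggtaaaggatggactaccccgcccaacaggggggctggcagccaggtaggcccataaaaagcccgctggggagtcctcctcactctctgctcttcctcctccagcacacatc
Serpina3n, chr12:104406458-104406707, plus strand: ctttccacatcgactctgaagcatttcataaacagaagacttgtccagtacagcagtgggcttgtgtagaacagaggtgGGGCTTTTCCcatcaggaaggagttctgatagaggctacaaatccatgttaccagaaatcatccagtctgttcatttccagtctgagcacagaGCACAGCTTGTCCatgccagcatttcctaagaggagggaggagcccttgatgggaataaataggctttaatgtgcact

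Aligned end to end, the Saa1 and Saa2 stretches had 238 identical bases, 11 mismatches and 2 gap positions, an identity of 94.8%. The next closest pair among the 8, Saa2 and Lcn2, had 53.2%. The C/EBP motif was in 6 of the 8 stretches (Saa1, Saa2, Saa3, Saa4, Orm2 and Lcn2) and in 9.56% of 32851 windows of the same length over all genes. It was thus present both in genes called lower and in Saa3 and Lcn2. In Saa1 and Saa2 it is the same stretch, TTGCACAA, beginning 182 and 183 bases before the start.

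The NF-kB consensus was in Serpina3n alone of the 8, as GGGCTTTTCC, and in 1.41% of all windows. A looser NF-kB form with free middle bases, which overlaps it and is not capitalised, was in 6 of 8 and in 45.8% of all windows. The glucocorticoid receptor palindrome was in Serpina3n alone, as GCACAGCTTGTCC, and in 0.387% of all windows. Neither the STAT3 motif TTCNNNGAA (7.02% of all windows) nor the interleukin-6 element CTGGGAA (9.10%) was in any of the 8 stretches, which says only that these letters are not in this window.

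The orosomucoids, or alpha-1-acid glycoproteins, are plasma carriers of the lipocalin fold. Orm1 read 154 in LT and 170 in 17kT, against 4103 in WT, 26.6-fold and 24.2-fold lower. Counted from the lowest ratio, Orm1 was at rank 9 of the 10166 genes in LT and at rank 16 of the 10503 in 17kT. Orm2 read 35.4 in LT and 39.7 in 17kT, both below the floor, against 480 in WT, at least 5.31-fold lower in each. With the floor at the 75th percentile this bound is under 2-fold (a log2 ratio of -0.78), by the higher floor itself. Orm3, which lies between them on chromosome 4, was at or below the floor on all 3 arrays. The 2 orosomucoid genes are close relatives, and their levels are uncertain to the extent that probes bind both.

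Haptoglobin, the product of Hp, binds free haemoglobin in plasma. Hp read 12510 in LT and 4234 in 17kT, against 20187 in WT. LT lay 1.61-fold under WT, inside the rule, while 17kT was 4.77-fold lower. Hp was the 1 member called in 17kT and not in LT, and LT was 2.95-fold higher than 17kT in the direct ratio.

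Serpina3n, a secreted inhibitor of serine proteases related to human antichymotrypsin, went the other way between the transgenic livers. It read 207 in LT and 876 in 17kT, against 2111 in WT, 10.2-fold and 2.41-fold lower. The value in 17kT is within the rule when arrays are scaled to the hybridisation controls (a log2 ratio of -0.55). Most other Serpina3 genes of the mouse were not analysed here. Of the 2 that were, Serpina3a was at or below the floor and Serpina3i read 215.5 in LT and 300.1 in 17kT, against 479 in WT, a log2 ratio of -1.15 in LT and -0.68 in 17kT.

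C-reactive protein is a pentraxin that binds phosphocholine on microbes and dying cells. It is a strong acute phase reactant in humans and a weak one in mice, where the related serum amyloid P, encoded by Apcs next to Crp on chromosome 1, takes that role. Crp read 1611 in LT and 723 in 17kT, against 4771 in WT, 2.96-fold and 6.60-fold lower. Apcs read 692 in LT and 222 in 17kT, against 3293 in WT, 4.76-fold and 14.8-fold lower. For both pentraxin genes the signal was lowest in 17kT, between in LT and highest in WT.

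Lcn2 was the 1 member above WT in both livers. Its product, lipocalin 2, holds iron-laden siderophores of bacteria, is stored in neutrophil granules and is also made by stressed hepatocytes and other epithelia. Lcn2 read 1858 in LT and 1542 in 17kT, against 749 in WT, 2.48-fold and 2.06-fold higher. The value in 17kT is just past the rule, and the log2 ratio of 1.04 became 0.83 with scaling to the probe sets that both designs carry, 0.87 with scaling to the median and 0.96 with the floor as a pseudocount.

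Of 9 neutrophil markers on the arrays, 5 were above the floor in LT, 3 in 17kT and 1 in WT, and their summed signals were 1055, 733 and 695. These sums include signals below the floor, which are most of the markers in 17kT and WT, so they do not measure neutrophils. S100a8, an abundant neutrophil protein gene, read 229 in LT and 69.2 in 17kT, against 35.6 in WT, with the values in 17kT and WT below the floor. Ngp, a neutrophil granule protein gene and the 1 marker above the floor in WT, read 184 in LT and 132 in 17kT, against 191 in WT, log2 ratios of -0.05 and -0.53. Camp, Csf3r and Cxcr2 were below the floor on all 3 arrays. Ngp was named after its values were seen. The part of neutrophils in the Lcn2 values was not tested.

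**Figure D2:**
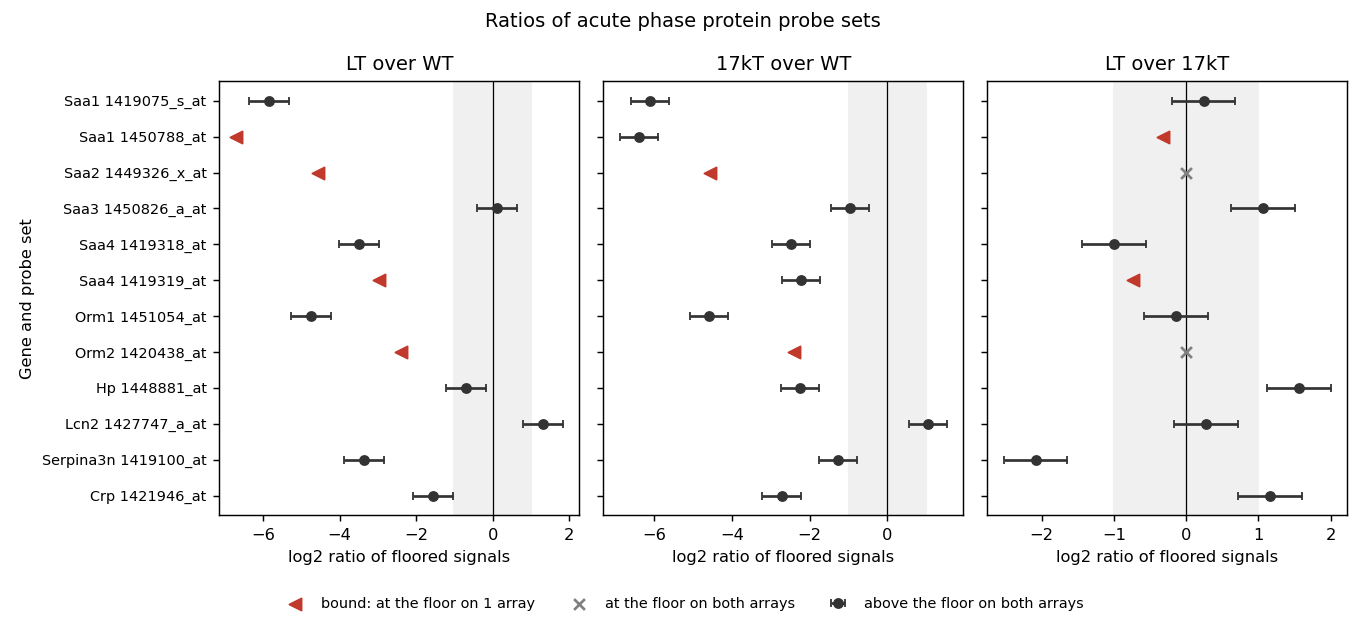
Log2 ratio of floored signals for each probe set in LT over WT, 17kT over WT and LT over 17kT, with the range inside the 2-fold rule shaded. Bars on dots are the SD between probe sets of the same gene (0.52, 0.49 and 0.44), red triangles are bounds with 1 array at the floor, and crosses mark probe sets at the floor on both. Lcn2 is the only gene right of the shaded range in both comparisons with WT.

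The direct comparison of LT with 17kT set the form that binds p53 beside the one that does not. The arrays also differed in fluidics station and in the decimals of the deposited signals, and 17kT is a short form of large T. With 1 array each, p53 binding cannot be told apart from these differences. Of the 8 genes above the floor in at least 1 of the 2 livers, Hp, Crp and Saa3 were higher in LT (2.95-fold, 2.23-fold and 2.09-fold), Serpina3n was lower (4.24-fold), and Saa1, Saa4, Orm1 and Lcn2 were within the rule. Saa2 and Orm2 were at the floor in both and gave no ratio. The background was 4.47% higher and 4.23% lower of 12542 measured genes, and 4.7% higher and 2.56% lower among the bright 430A genes. Saa4, 1.998-fold under 17kT in LT, lay just short of the rule.

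Serpina3n ranked 14 from the lowest of 10598 genes with both signals above the floor, and Hp ranked 95 from the highest. Saa1 and Orm1, far below WT in both livers, were within the rule between LT and 17kT, with log2 ratios of 0.24 and -0.14. The log2 ratio of Lcn2 was 0.27. Crp and Saa3 were within the rule when arrays were scaled to the hybridisation controls, at 0.81 and 0.71, so that 1 member was higher and 2 were lower there. Crp, Saa3 and Saa4 thus passed the rule under some scalings and not others, without a change of sign, while Serpina3n (a log2 ratio from -2.43 to -1.92 over 6 scalings) and Hp (1.21 to 1.73) passed it under all 6.

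**Figure D3:**
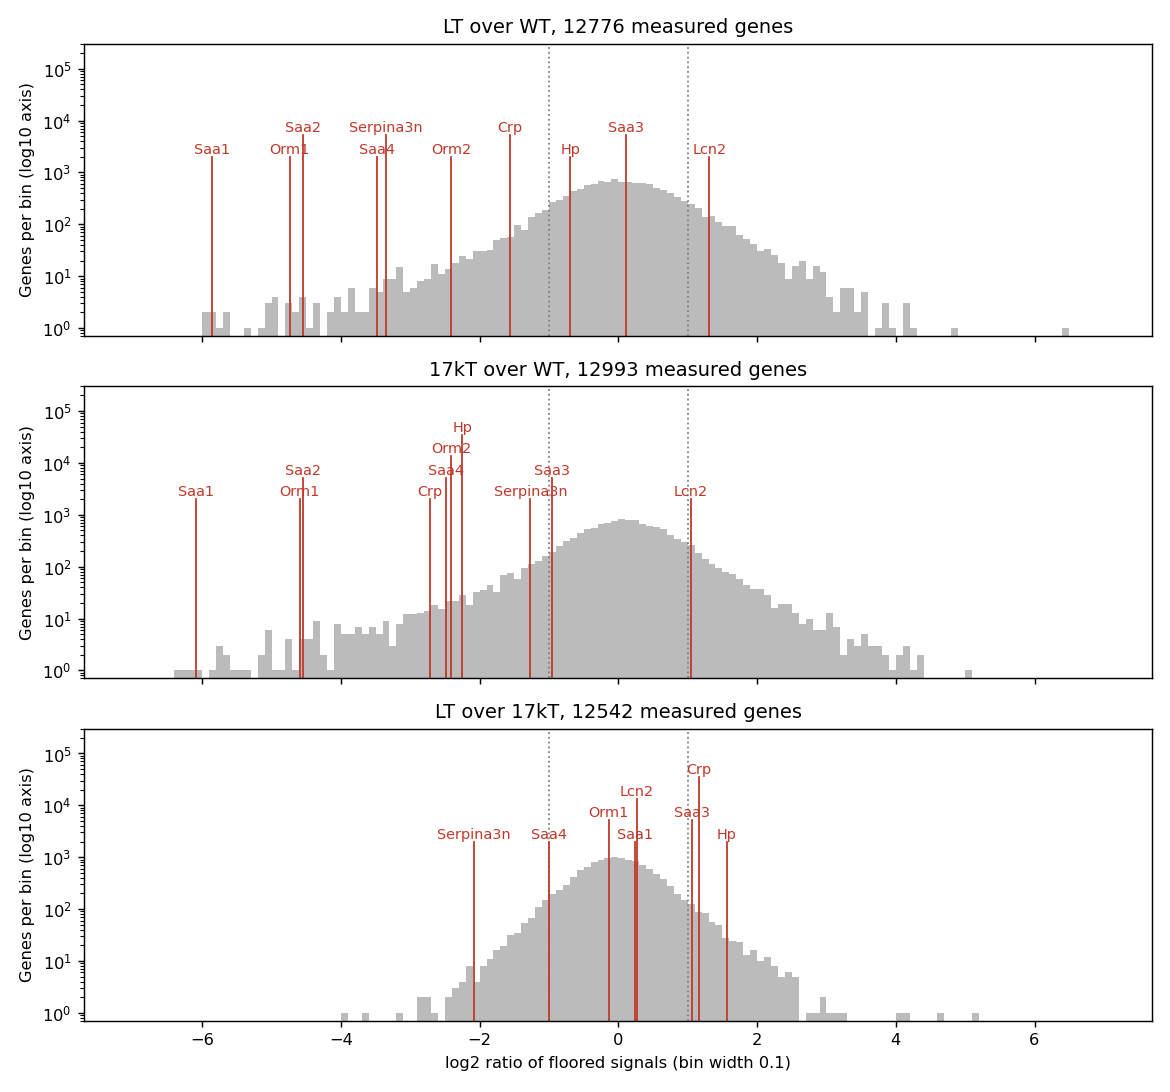
Histograms of log2 ratios of floored signals for all measured genes (grey, number of genes on a log10 axis) with the acute phase genes as labelled red lines and the 2-fold rule dotted. Saa1, Saa2 and Orm1 lie in the far left tail in both comparisons with WT, and Serpina3n and Hp lie at opposite sides in LT over 17kT.

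How far these values hang on scaling was measured directly. Over 6 ways of scaling the arrays, the median log2 ratio of all measured genes ran from -0.27 to 0.41 in LT against WT and from -0.05 to 0.47 in 17kT against WT, while that of the 10 members ran from -3.08 to -2.51 and from -2.62 to -1.88. The share of higher genes among all calls ran from 27.0% to 82.9% in LT against WT (55.2% as used) and from 42.9% to 83.5% in 17kT against WT (53.6% as used). In LT against WT the members split into 7 lower and 1 higher under each of the 6 scalings. Of the 6, the signals as deposited nearly repeat the scaling used, since their 2% trimmed means on 430A were already 250.1. That agreement was therefore fixed in advance. In 17kT against WT the split was 8 lower and 1 higher as used, 9 and 0 when scaled to the median or to the probe sets that both designs carry, and 7 and 1 when scaled to the hybridisation controls.

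**Figure D4:**
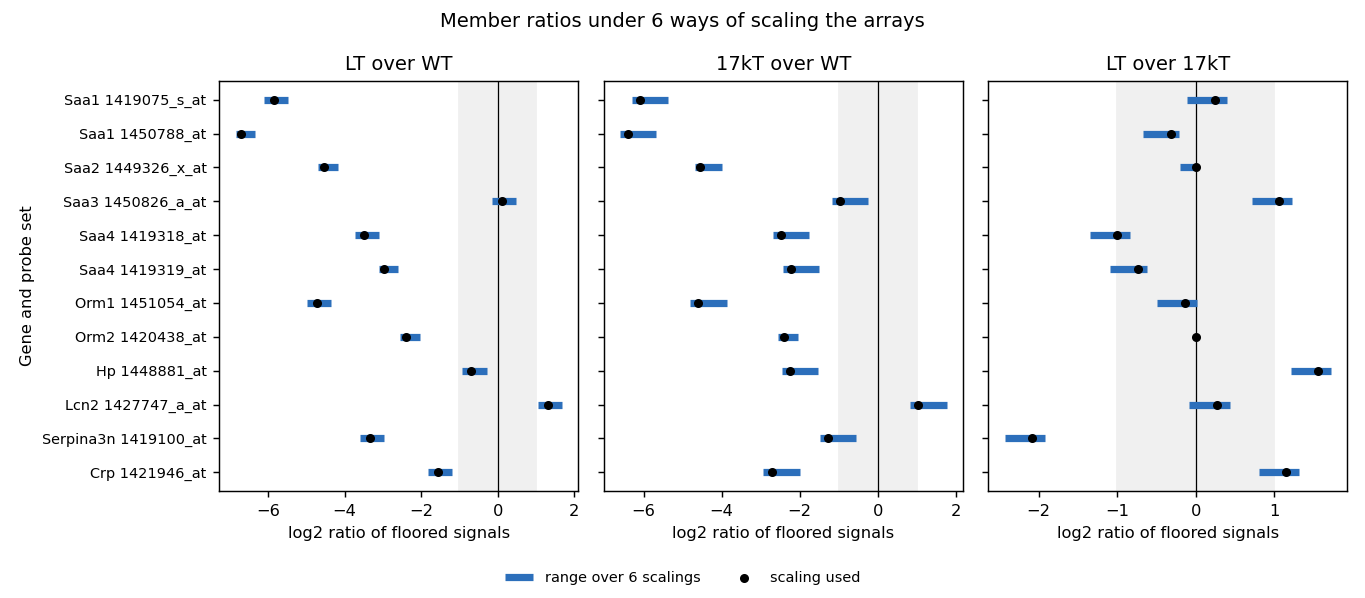
Log2 ratio of floored signals of each probe set as used (dots) and its range over 6 scalings (bars), with the range inside the 2-fold rule shaded. The bars of Saa1, Saa2, Orm1 and Orm2 stay left of the shaded range in both comparisons with WT, and those of Saa3, Serpina3n and Lcn2 in 17kT over WT cross its edges.

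Other positive acute phase genes, a list of 32 of which 26 were measured, went both ways. In LT against WT, 9 were lower, 3 higher and 14 within the rule (median log2 ratio -0.60), and in 17kT against WT 11 were lower, 4 higher and 11 within (median -0.88). Beside these counts stand 9.01% lower and 11.1% higher of all measured genes in LT, with 22.4% and 4.74% of the bright 430A genes. In 17kT the shares were 8.64% and 9.97% of all, with 23.8% and 4.27% of the bright ones. Some genes of this list were dimmer in WT than the bright set. The mannose-binding lectin genes Mbl2 and Mbl1, whose products start complement, were 10.2-fold and 7.89-fold lower in LT and 4.48-fold and 8.76-fold lower in 17kT. C9, of the complement pore, was 5.33-fold and 6.58-fold lower.

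Hamp, Mt1 and Mt2 were higher in both livers, and Steap4 in 17kT. Hamp, which encodes the iron hormone hepcidin and is itself induced by interleukin-6, read 5938 in LT and 7184 in 17kT, against 867 in WT, 6.85-fold and 8.29-fold higher. The metallothionein genes Mt1 and Mt2, whose products bind zinc and copper, were 5.73-fold and 3.97-fold higher in LT and 12.3-fold and 10.7-fold higher in 17kT. Steap4, a metalloreductase gene, read 965 in LT and 3016 in 17kT, against 967 in WT. In LT against 17kT, Steap4, Mt2 and Mbl2 were lower (3.13-fold, 2.69-fold and 2.27-fold) and Apcs and the fibronectin gene Fn1 higher (3.12-fold and 2.51-fold).

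Of 13 negative acute phase genes measured, 6 were lower, 0 higher and 7 within the rule in LT against WT (median -0.96). In 17kT against WT 10 were lower, 0 higher and 3 within (median -1.27). The share of lower genes was 9.01% and 8.64% over all measured genes, and 22.4% and 23.8% over the bright 430A genes. Some genes of this list were represented on 430B and lie outside that bright set. Pon1, the lipoprotein-bound paraoxonase gene, was 14.5-fold lower in LT and 11.5-fold lower in 17kT, and Fetub, of the fetuin family, 9.83-fold and 7.27-fold lower. The apolipoprotein genes Apoa2 and Apom were 4.28-fold and 3.59-fold lower in LT and 16.3-fold and 20.8-fold lower in 17kT. LT was higher than 17kT for 4 genes of this list, among them Apom (5.79-fold), Serpina6, the corticosteroid-binding globulin gene (4.01-fold), and Apoa2 (3.80-fold). Alb itself read 23850 in LT and 18261 in 17kT, against 28285 in WT, a log2 ratio of -0.25 and -0.63.

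For genes of the signals upstream, the counts were near those of all genes. Of 31 measured in LT against WT, 2 were lower, 4 higher and 25 within the rule (median 0.16), and of 30 in 17kT, 3 were lower, 2 higher and 25 within (median 0.28). Over all measured genes 9.01% were lower and 11.1% higher in LT, and 8.64% and 9.97% in 17kT. The ligand genes Il6, Tnf and Lif, the feedback inhibitor gene Socs1 and the factor gene Cebpd, named after their values were seen, were at or below the floor on all 3 arrays.

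At the receptors, Il1rap, which encodes the shared chain of the interleukin-1 receptor, read 128 in LT and 83.9 in 17kT (below the floor), against 1530 in WT, a log2 ratio of -3.58 in LT and at least 16.9-fold lower in 17kT. Other probe sets of Il1rap did not show such a loss, with log2 ratios of -0.90 and -0.59 for 1439697_at on the 430B design and 0.13 and 0.49 for 1421844_at. Lifr, the receptor gene for leukaemia inhibitory factor, was 10.3-fold lower in LT and 5.82-fold lower in 17kT, and its second probe set 1454984_at gave log2 ratios of -1.38 and -0.76. The interleukin-6 receptor genes Il6ra and Il6st, given because the pathway turns on them, had log2 ratios of -0.88 and 0.22 in LT and -0.58 and 0.27 in 17kT.

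Among signal carriers and factors, Ptpn11, the gene of a phosphatase that works at gp130, was 3.31-fold higher in LT and 2.82-fold higher in 17kT. Stat3 was within the rule at every probe set, between -0.99 and 0.62 in LT and between -0.20 and 0.87 in 17kT. Socs3, the main brake on STAT3 signalling, was 2.24-fold higher in 17kT, with a log2 ratio of 0.95 in LT. Its WT signal of 93.9 was just above the floor. Its other probe sets gave log2 ratios of at least 0.44 and 0.66 in 17kT, with WT below the floor.

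On the NF-kB side, Nfkbiz and, outside the naming rule, Nfkbia were 2.86-fold and 2.02-fold higher in LT. Other probe sets of Nfkbia gave log2 ratios of -0.13, 0.66, 1.36 and 0.88 in LT. Nfkb2 was at least 3.50-fold higher in LT, with its WT signal below the floor. A second probe set of Nfkb2 gave a log2 ratio of at least 0.07 in LT, with WT again below the floor. Cebpa, the C/EBP form of the resting hepatocyte, read 1221 in LT and 538 in 17kT, against 2244 in WT, 4.17-fold lower in 17kT and -0.88 on the log2 scale in LT. Cebpb, the form known to drive acute phase genes, read 295 in LT and 454 in 17kT, against 302 in WT.

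**Figure D5:**
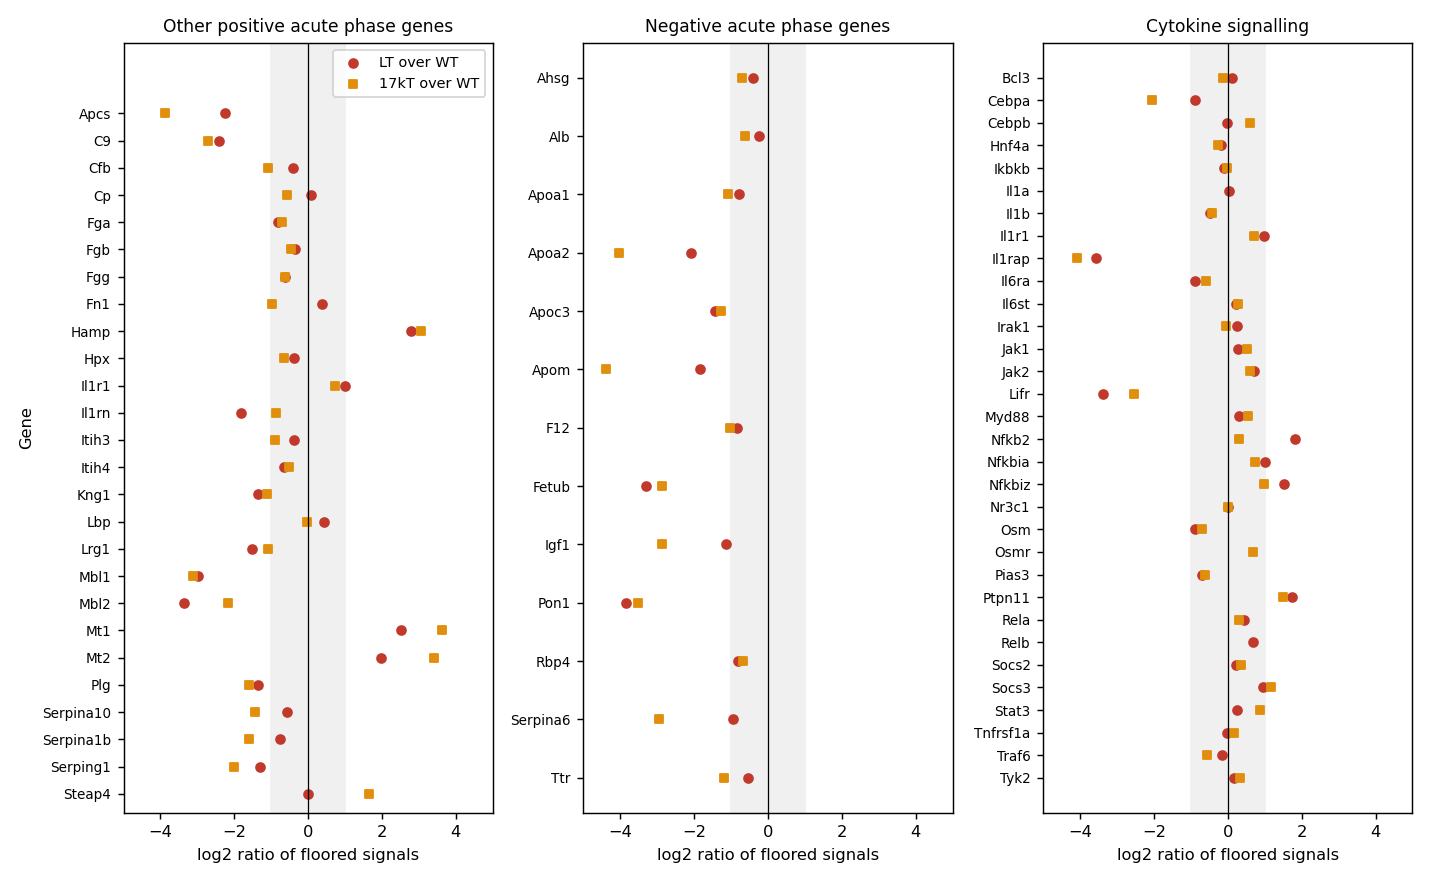
Log2 ratio of floored signals of LT over WT (circles) and 17kT over WT (squares) for the measured genes of 3 lists, with the range inside the 2-fold rule shaded and genes at the floor on 1 array shown at their bound. Hamp, Mt1 and Mt2 lie to the right, every negative acute phase gene lies left of 0, and most signalling genes lie inside the shaded range.

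Relatives of the members were mostly unmeasured. Of 22 Serpina3, lipocalin and pentraxin relatives, 13 were on the arrays and 5 were above the floor in LT or WT, with 2 lower in LT (Apcs and Serpina3i). In 17kT against WT 2 of 6 were lower, Apcs and Ptgds, the lipocalin-type prostaglandin D synthase gene, which read 722 in LT and 198 in 17kT, against 859.5 in WT. Ptgds was 3.65-fold higher in LT than in 17kT.

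Genes with the most similar pattern were found by distance between pairs of log2 ratios (LT over WT, 17kT over WT) among 5674 genes on 430A above the floor on all 3 arrays. The distance rests on 3 arrays and on a shared WT array. Thrsp lay nearest to Saa1, at a distance of 0.08, with Keg1 (1.33) and Slco1b2 (1.74) next. Orm1 had Aqp8 (0.24), Cyp1a2 and Cyp4a12a (both 0.33) nearest, and Saa4 had Lifr (0.13), Aqp9 (0.16) and Cyp27a1 (0.21). Hp was nearest to Cyp2c38 (0.09), Osgin1 (0.20) and Pdxk (0.22), and Crp to Serpinf1 (0.18), Hao1 (0.22) and Fabp1 (0.26). Serpina3n had no close match, with Apoc4 at 0.43, Stard5 at 0.58 and Aox1 at 0.62. Saa3 lay by Akr1c20 (0.02), Abca8a (0.09) and Nop14 (0.10), and Lcn2 by Jade1 (0.04), Nt5dc2 and Nolc1 (both 0.05).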

How the data were processed

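The authors deposited 1 intensity (a linear MAS5 signal) for each probe set, with the program credited to the submitters' processing notes and its version not given in the sources used here. Settings files, which hold other entries than expression, gave the fluidics station, per the file headers. Each of 3 genotypes had a 430A and a 430B array, 6 in all. The sources used here do not say whether RNA was pooled over animals. Precision is limited by the small number of arrays.

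Signals printed are as deposited. For ratios they were scaled within a design to a 2% trimmed mean of 250, floored at the median of the design (90.4 on 430A, 140.5 on 430B) and turned into log2 values with pandas 2.3.3. Symbols came from the platform annotation, updated through gene identifiers to RefSeq (GRCm38.p6), leaving out those with more than 1 symbol or with none. A gene was represented by its probe set brightest relative to the floor, _x_at only where it had no other. Genes counted as measured where either signal compared exceeded the floor. A fold is given as "at least" where the dimmer signal was at the floor.

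The members, gene lists and rules were chosen with earlier results of these data known. Named genes were the members, at most the 3 highest and 3 lowest called genes of each list and comparison, and the 3 nearest patterns per member. Genes named outside this rule are marked or given as values of the pathway or as cell type markers. The 11 alternatives were 5 scalings, 3 floors, a 3-fold rule, the mean over probe sets, and leaving out _x_at and _s_at probe sets. Of the 5 scalings, the signals as deposited nearly repeat the one used. The code was tested on simulated arrays. Stretches before transcription starts are from RefSeq and were aligned with Biopython 1.88.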

Additional observations from a re-analysis of the deposited data

How the results depend on the processing

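Of the counts of member genes, those lower against WT kept within 6 to 7 genes in LT (7 as used) and 7 to 9 in 17kT (8 as used) over 11 alternatives. The 3-fold rule left 0 higher in LT against WT, 0 higher in 17kT against WT and 0 higher in LT against 17kT. The 1 higher gene in 17kT against WT, Lcn2, also gave 0 when scaled to the median of all probe sets, when scaled to the probe sets present on both designs and with the floor as a pseudocount. In LT against 17kT, 1 was higher (3 as used) when scaled to the hybridisation controls, and 2 were lower (1 as used) with that scaling, with quantile normalization and when scaled to the probe sets present on both designs. In 17kT against WT Lcn2 (2.06-fold), and in LT against 17kT Crp (2.23-fold), Saa3 (2.09-fold) and Saa4 (1.998-fold), lay near the 2-fold rule. Hp in LT against 17kT (2.95-fold) and Lcn2 in LT against WT (2.48-fold) changed call only under the 3-fold rule.

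No called member probe set changed sign among 8 alternatives. Of the probe set values under them, 206 stayed within the spread taken for technical error and 82 moved by more. The 206 include those of the signals as deposited, which nearly repeat the values used. For the other lists, counts against WT over the 11 alternatives ran from 5 to 11 lower (9 as used) in LT and from 5 to 14 (11 as used) in 17kT for other positive acute phase genes. They ran from 4 to 11 lower (6) and from 6 to 10 (10) for negative ones, from 1 to 7 higher (4) and from 0 to 13 higher (2) for signalling genes, and from 2 to 5 lower (2) and from 3 to 4 lower (3) for signalling genes. Relatives ran from 1 to 4 lower (2) in LT and stayed at 2 in 17kT. No paired analysis was possible because each genotype had 1 array per design. Leaving out an array was not possible either. Dim signals limit the ratios of Saa2 and Orm2, which are bounds against WT and have no value in LT against 17kT.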
